A study of Mus musculus with 8 samples.

Results

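The Kruppel-like factors (KLFs) followed here are 9 genes of that family, *Klf2*, *Klf3*, *Klf4*, *Klf5*, *Klf6*, *Klf7*, *Klf9*, *Klf10* and *Klf13*. They were chosen with earlier results of these data known, so their share of calls is not that of an unselected family. *Klf1*, *Klf12*, *Klf15*, *Klf16* and *Klf17*, also on the arrays, are described with the Sp genes further on. The 9 were found as the probe sets whose only annotated gene symbol was one of their names. This gave 26 probe sets of 22626 tested, for 9 of 12393 genes. The arrays come from splenic Gr1+Cd11b+ cells, a population of immature myeloid cells (IMCs), sorted from 4 male *Tff2*-/- mice of 16 weeks on a C57BL/6 background. All mice lack TFF2, a small secreted trefoil peptide, and all had drunk 3% DSS, a chemical that causes colitis, for 5 days and then plain water for 14 days. The sorted cells of each mouse were split between a culture with GM-CSF (Csf2, 5 nM by the labels, while the methods of the study give another dose) plus 3 µM mouse recombinant TFF2 (rTFF2) and a culture with GM-CSF alone, both for 7 days, so that n = 4 mice in each group and every rTFF2 culture has a partner from the same animal. No wild-type cells and no culture without GM-CSF were part of these 8 arrays, and each array holds the RNA of a whole culture, in which fewer cells of a type and less RNA per cell cannot be told apart.

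KLFs are transcription factors with zinc fingers at their carboxyl end that bind CACCC and GC-rich boxes in promoters, often at the same sites as the related Sp factors. What a member does at a site is set by its other end, which recruits acetyltransferases in activators such as KLF2, KLF4, KLF5, KLF6 and KLF7, the corepressor CtBP in KLF3, and the Sin3A repressor complex in KLF9, KLF10 and KLF13. In myeloid cells of the mouse, KLF4 is known for the differentiation of monocytes and for the alternatively activated state of macrophages, KLF2 for keeping monocytes quiescent, and KLF6 for inflammatory activation of macrophages.

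The promoters of 4 members are shown to mark the CACCC boxes in them, and because *Klf2* and *Klf3* were higher and *Klf4* and *Klf9* lower with rTFF2. They are the 250 bases before the annotated start of each gene, from RefSeq (GRCm38.p6), written 5′ to 3′ on the strand of the gene. Capitals mark every CACCC box on either strand (CACCC or GGGTG) and, in *Klf2*, the match to the consensus of the MEF2 factors. Of the 9 members 7 had a promoter in the table used; *Klf5* and *Klf10* did not.
Klf2 (chr8:72318812-72319061, plus strand): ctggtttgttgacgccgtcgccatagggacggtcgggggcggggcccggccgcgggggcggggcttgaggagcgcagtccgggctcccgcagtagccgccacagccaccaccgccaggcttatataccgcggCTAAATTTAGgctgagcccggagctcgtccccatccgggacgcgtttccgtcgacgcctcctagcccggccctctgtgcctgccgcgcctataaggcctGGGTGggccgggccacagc
Klf3 (chr5:64803271-64803520, plus strand): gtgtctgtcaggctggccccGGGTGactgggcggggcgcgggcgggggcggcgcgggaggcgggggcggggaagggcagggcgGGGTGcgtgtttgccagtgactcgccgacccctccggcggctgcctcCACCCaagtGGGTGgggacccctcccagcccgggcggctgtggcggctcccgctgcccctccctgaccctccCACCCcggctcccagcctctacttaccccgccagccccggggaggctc
Klf4 (chr4:55532476-55532725, minus strand): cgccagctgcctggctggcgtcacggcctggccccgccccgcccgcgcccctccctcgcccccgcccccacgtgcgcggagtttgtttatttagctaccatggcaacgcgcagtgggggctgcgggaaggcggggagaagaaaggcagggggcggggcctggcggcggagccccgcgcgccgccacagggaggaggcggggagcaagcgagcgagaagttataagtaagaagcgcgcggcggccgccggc
Klf9 (chr19:23140976-23141225, plus strand): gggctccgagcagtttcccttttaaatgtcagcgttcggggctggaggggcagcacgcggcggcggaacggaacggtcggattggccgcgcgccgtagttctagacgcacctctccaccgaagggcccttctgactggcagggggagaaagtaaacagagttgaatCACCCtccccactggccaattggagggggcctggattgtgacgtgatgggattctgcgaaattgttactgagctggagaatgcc
The *Klf3* window held 5 CACCC boxes, the *Klf7* window 3, those of *Klf2*, *Klf9* and *Klf13* 1 each, and those of *Klf4* and *Klf6* none. A CACCC box was found in 52% of the 32851 promoter windows of that length. The GC box GGGCGG, the site shared with Sp factors (both strands, a match may share an end base with a CACCC box), occurred 6 times in *Klf3*, 4 times in *Klf4*, 3 times in *Klf13*, 2 times in *Klf2*, once each in *Klf6* and *Klf7* and not in *Klf9*, against at least one match in 32.7% of all windows. Only *Klf2* among the 7 held a MEF2 match, which starts at -118 from the gene start and occurs in 2.92% of all windows, and none of the 7 held a CArG box, the site of the serum response factor (1.47% of all windows). These matches describe the letters of the windows and no binding was measured.

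With rTFF2, most of the 9 KLF genes moved, and they did not move one way. *Klf2*, *Klf3*, *Klf5*, *Klf6*, *Klf7* and *Klf13* rose, *Klf4* and *Klf9* fell, and *Klf10* did not pass the test. By probe set, 18 of 26 passed an adjusted p of 0.05 in limma with the mouse as a block, where 25.7% of all 22626 probe sets passed. Of these, 12 were higher with rTFF2, against 13.7% of all probe sets, and 6 were lower, against 12%. By gene, on the brightest probe set of each, 8 of 9 passed beside 27.7% of 12393 genes. Outside the 9, *Klf1*, *Klf12*, *Klf15*, *Klf16* and *Klf17* were not called, and all of these but *Klf16* were at background. Among probe sets above background in a group, of which the KLFs have 22, the share that passed was 39.8% (22.3% higher, 17.5% lower).

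The size of the differences was modest for most members. The median absolute difference of the 26 KLF probe sets was 0.56 on the log2 scale, beside 0.15 over all probe sets and 0.24 over those above background. A change over 2-fold with an adjusted p under 0.05 was found for 4 of 26, 3 higher and 1 lower, where 3.57% of all probe sets reached it, 1.87% higher and 1.69% lower. In 22 of 26 probe sets all 4 mice went the same way, 13 higher and 9 lower (2 of these at background, both of *Klf9*), where 45% of all probe sets did so, 21.5% higher and 23.5% lower. In 14 of 26 the 4 rTFF2 cultures did not overlap with the 4 cultures with GM-CSF alone, 10 of them higher and 4 lower, where 25.5% of all probe sets did not overlap (12.8% higher, 12.7% lower) and 35.5% of those above background did not (20.1% higher, 15.4% lower). No gene had called probe sets in both directions. The 4 probe sets at background on all 8 arrays (one each of *Klf3* and *Klf13*, and 2 of *Klf9*) were not called. Background here is a log2 signal of 3.50, under which 95% of the values of 39 genes listed as foreign to these cells lie. Of these genes, *Mbp* (8.38 with rTFF2, 8.14 with GM-CSF alone) and *Cela1* (4.67 and 4.47) stood above it. Without them the level is 2.92, so signals between these levels are at background only by the higher one.

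**Figure D1:**
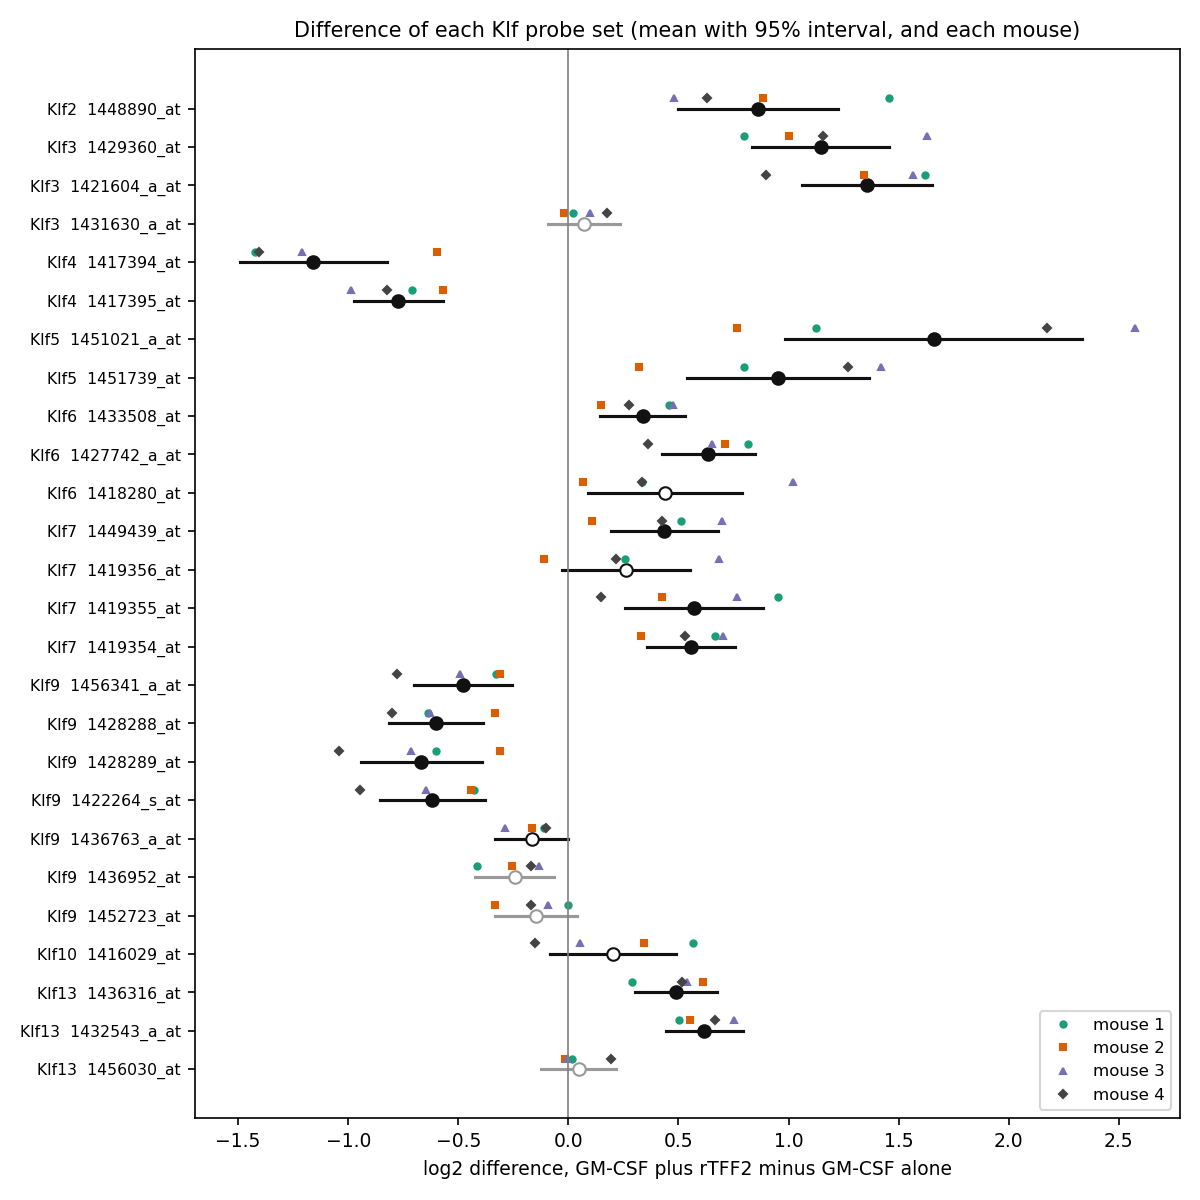
Log2 difference (rTFF2 cultures minus cultures with GM-CSF alone) of each of the 26 KLF probe sets. Large circles are means over 4 mice with the 95% interval from limma (filled where the adjusted p is under 0.05, grey where the probe set is at background on all arrays) and small symbols are the single mice; *Klf2*, *Klf3*, *Klf5*, *Klf6*, *Klf7* and *Klf13* lie right of 0 and *Klf4* and *Klf9* left of it.

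*Klf4* and *Klf2*, the pair best known from monocytes, went opposite ways. *Klf4* (Entrez gene 16600, chromosome 4) is induced by the kinase ERK5 and by STAT6, and restrains the cell cycle in many cell types. Its brighter probe set, 1417394_at, had log2 signals of 7.68, 9.17, 8.26 and 7.92 in the rTFF2 cultures of mice 1 to 4, against 9.10, 9.77, 9.47 and 9.32 with GM-CSF alone. Mouse 2 was the highest of both groups, and its rTFF2 culture lay above the control culture of mouse 1, so the groups overlap although each mouse fell. The mean was 8.26 ± 0.65 with rTFF2 and 9.42 ± 0.28 with GM-CSF alone (SD, n = 4 mice each), a difference of -1.16 on the log2 scale, or 2.23-fold lower (standard error 0.14, 95% interval -1.49 to -0.83, adjusted p = 0.0016).

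The second *Klf4* probe set, 1417395_at, had 4.16, 4.93, 4.31 and 4.33 with rTFF2, against 4.87, 5.49, 5.30 and 5.15 with GM-CSF alone. The order of the mice was nearly the same, with mouse 2 highest on both sides, and the groups overlapped through mouse 2 again. All 4 mice went down, on average by -0.77 in log2 units (standard error 0.086, adjusted p = 0.0012).

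*Klf2* (Entrez gene 16598, chromosome 8), an activator that is induced through ERK5 and MEF2 and sustains quiescence of T cells and monocytes, has 1 probe set, 1448890_at. It read 8.33, 7.98, 8.67 and 8.62 in the rTFF2 cultures, against 6.88, 7.09, 8.19 and 7.99 in those with GM-CSF alone. The cultures of mice 3 and 4 were higher than those of mice 1 and 2 in both groups, so that the group ranges overlap, while each mouse rose, by between 0.48 (mouse 3) and 1.45 (mouse 1). The mean difference was 0.86, or 1.82-fold (standard error 0.15, 95% interval 0.50 to 1.22, adjusted p = 0.0072). Without the pairing by mouse the same difference had an adjusted p of 0.068.

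**Figure D2:**
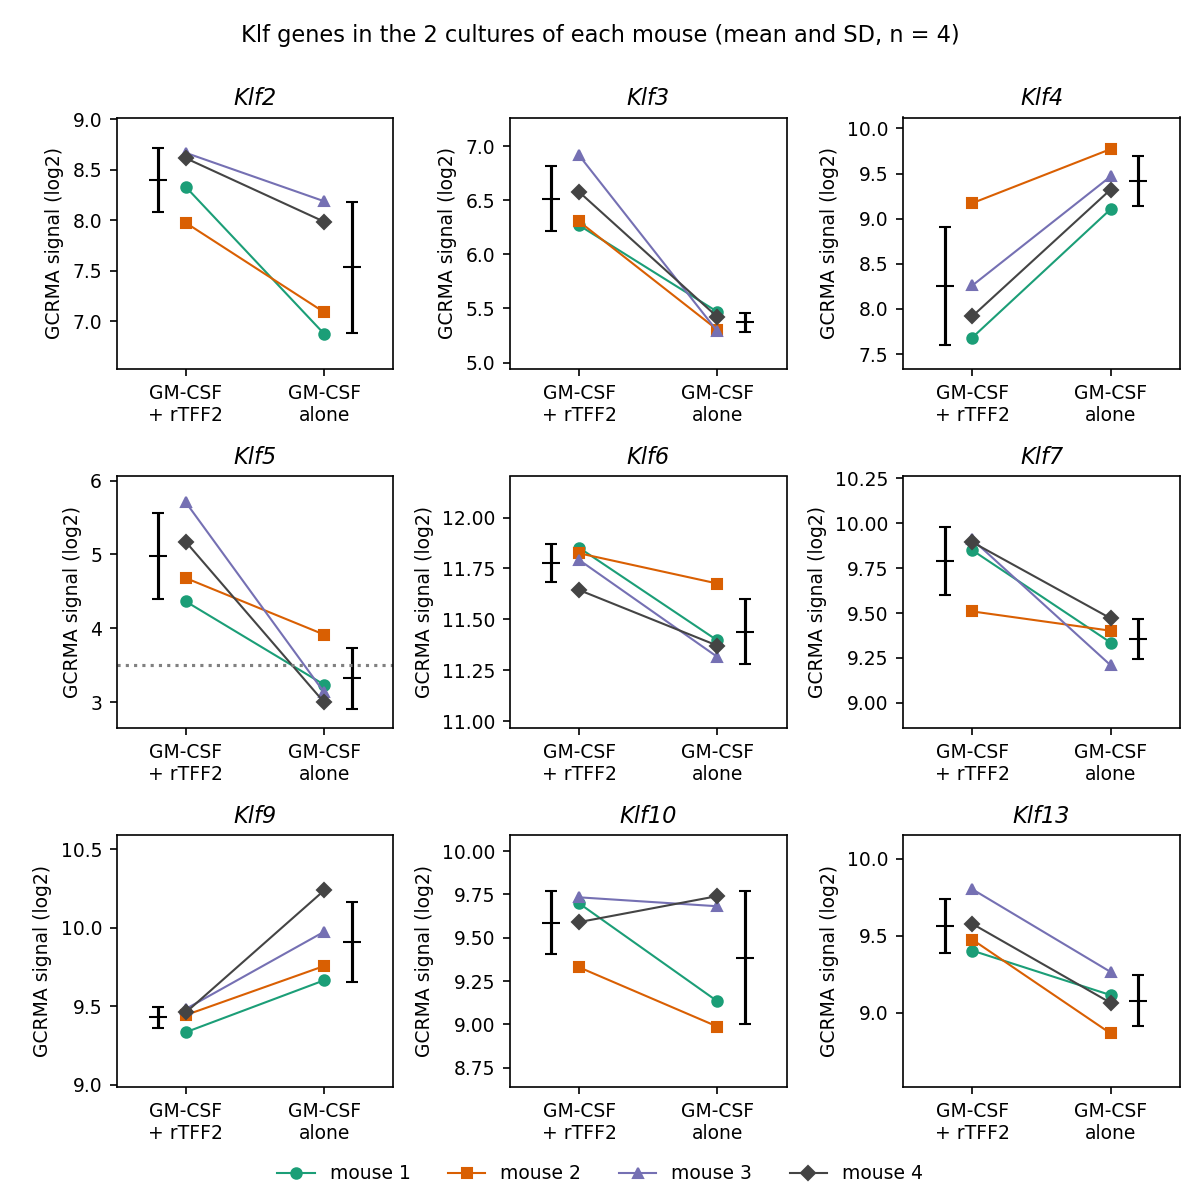
Log2 signals of the brightest probe set of each KLF gene in the 8 cultures. Lines join the cultures of a mouse, rTFF2 at the left and GM-CSF alone at the right, bars give the mean and SD (n = 4) and the dotted line in the *Klf5* panel is the background level of 3.50; the lines of *Klf4* and *Klf9* climb towards GM-CSF alone, those of *Klf10* go both ways, and those of the other genes descend.

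*Klf3* (Entrez gene 16599, chromosome 5), the CtBP-dependent repressor of the family and itself a target of erythroid KLF1, had the probe set with the smallest adjusted p of the 26. Probe set 1421604_a_at read 5.88, 5.86, 5.97 and 5.66 with rTFF2, against 4.26, 4.52, 4.40 and 4.77 with GM-CSF alone. The rTFF2 cultures were close to each other, and the lowest of them stood above every control culture. Its mean was 5.84 ± 0.13 with rTFF2 and 4.49 ± 0.21 with GM-CSF alone (SD, n = 4 mice each), a rise of 1.36, or 2.56-fold (standard error 0.12, adjusted p = 6.2e-04).

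Probe set 1429360_at gave 6.27, 6.30, 6.92 and 6.58 with rTFF2, against 5.47, 5.30, 5.29 and 5.42 with GM-CSF alone, again with no overlap. It rose by 1.15, or 2.21-fold (standard error 0.13, adjusted p = 0.0013), most in mouse 3 (1.63) and least in mouse 1 (0.80). The third probe set, 1431630_a_at, was at background on all arrays, between 2.80 and 2.94 with rTFF2 and between 2.71 and 2.91 with GM-CSF alone (adjusted p = 0.51). Both measured *Klf3* probe sets stayed past the threshold under all 12 alternatives of the fit and the normalization that were run on them.

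*Klf5*, *Klf6* and *Klf7* are activators, and all 3 rose. *Klf5* (Entrez gene 12224, chromosome 14), known best for the proliferation of the crypts of the gut, was dim. On 1451021_a_at the rTFF2 cultures read 4.36, 4.68, 5.70 and 5.17, against 3.24, 3.91, 3.13 and 3.00 with GM-CSF alone. All 4 rTFF2 arrays and 1 of 4 control arrays, that of mouse 2, were above background, and the groups did not overlap. The difference was 1.66, or 3.16-fold (standard error 0.29, 95% interval 0.99 to 2.33, adjusted p = 0.0063). Since the control mean of 3.32 lies under the background level, the rise is at least 2.59-fold when each control array is taken at that level or at its own value, whichever is higher. Against the level of 2.92 set without *Mbp* and *Cela1*, all 4 control arrays were above background and no such bound applies.

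The other *Klf5* probe set, 1451739_at, had 3.79, 3.46, 3.66 and 4.20 with rTFF2, against 2.99, 3.14, 2.23 and 2.93 with GM-CSF alone. It was above background on 3 of 4 rTFF2 arrays and on no control array. By that level, the group means allow only the statement that it was at least 1.21-fold higher, the rTFF2 mean over the background level (adjusted p = 0.0079). Against the level of 2.92, the control arrays of all mice but mouse 3 were above background, and the bound was not computed. With an offset of 32 added on the linear scale, which shrinks differences of dim probe sets, the *Klf5* differences were 0.61 (adjusted p = 0.070) and 0.23 (adjusted p = 0.056), no longer past the threshold.

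*Klf6* (Entrez gene 23849, chromosome 13), a gene of the early response to growth factors and inflammatory stimuli in macrophages, was bright in both groups. Probe set 1427742_a_at had 11.28, 11.09, 11.22 and 11.13 with rTFF2, against 10.46, 10.37, 10.57 and 10.77 with GM-CSF alone. The groups did not overlap, and the rise was 0.64, or 1.55-fold (standard error 0.090, adjusted p = 0.0029). The brightest *Klf6* probe set, 1433508_at, read 11.85, 11.82, 11.79 and 11.64 with rTFF2, against 11.40, 11.68, 11.32 and 11.37 with GM-CSF alone.

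There the groups overlapped through the control culture of mouse 2, and the rise of 0.34 (adjusted p = 0.023) was not past the threshold without mouse 1, mouse 3 or mouse 4 (0.30, 0.29 and 0.36, with adjusted p of 0.096, 0.093 and 0.059). The third, 1418280_at, had 9.71, 9.56, 9.56 and 9.69 with rTFF2, against 9.37, 9.49, 8.54 and 9.36 with GM-CSF alone. No control culture reached an rTFF2 culture, the control culture of mouse 3 stood well below the others, and the difference of 0.44 did not pass (adjusted p = 0.071), but did without mouse 2 (0.56, adjusted p = 0.045), and was 0.24 without mouse 3 (adjusted p = 0.14). So 2 of 3 *Klf6* probe sets were called, all 3 with the same sign in 4 of 4 mice.

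*Klf7* (Entrez gene 93691, chromosome 1), a broadly expressed activator studied most in neurons, had 4 probe sets, of which 3 rose. On 1419354_at the rTFF2 cultures had 8.42, 8.13, 8.41 and 8.64, against 7.76, 7.80, 7.71 and 8.11 with GM-CSF alone. The lowest rTFF2 culture and the highest control culture were almost level there, at 8.13 (mouse 2) and 8.11 (mouse 4), yet did not overlap, and the rise was 0.56, or 1.47-fold (standard error 0.084, adjusted p = 0.0038). On the brightest, 1449439_at, the rTFF2 cultures had 9.85, 9.51, 9.91 and 9.89, against 9.34, 9.40, 9.21 and 9.47 with GM-CSF alone.

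Mouse 2 showed the smallest change there, 0.11, against 0.42 to 0.70 in the others, and the mean rise of 0.44 (adjusted p = 0.021) was not past the threshold without mouse 1, mouse 3 or mouse 4 (0.41, 0.35 and 0.44, adjusted p of 0.083, 0.082 and 0.068). Probe set 1419355_at ranged between 8.73 and 9.32 with rTFF2 and between 8.31 and 8.85 with GM-CSF alone, and rose by 0.57 (adjusted p = 0.020), a call lost without mouse 1 or mouse 3 (0.44 and 0.51, adjusted p of 0.071 and 0.086). With the offset of 32, the calls of 1449439_at (0.42, adjusted p = 0.066) and 1419355_at (0.53, adjusted p = 0.082) were lost too. The last, 1419356_at, ranged between 9.09 and 9.58 with rTFF2 and between 8.88 and 9.33 with GM-CSF alone, higher in 3 of 4 mice and not called (0.26, adjusted p = 0.17), with 0.12 without mouse 3 (adjusted p = 0.48).

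The 3 members that recruit Sin3A differed from each other. *Klf9* (Entrez gene 16601, chromosome 19), a gene that glucocorticoid and thyroid hormones induce, fell. It is covered by 7 probe sets, which were lower with rTFF2 in 4 of 4 mice each, and 4 of them passed the test. The brightest, 1456341_a_at, had 9.34, 9.44, 9.48 and 9.46 with rTFF2, against 9.67, 9.76, 9.98 and 10.24 with GM-CSF alone. The rTFF2 cultures were nearly equal and all below the control cultures, a log2 difference of -0.48, or 1.39-fold lower (standard error 0.095, adjusted p = 0.011).

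On 1428288_at the values were 7.60, 7.86, 7.81 and 7.65 with rTFF2, against 8.24, 8.19, 8.44 and 8.45 with GM-CSF alone, a difference of -0.60 (standard error 0.090, adjusted p = 0.0037) with no overlap. Probe sets 1428289_at (-0.67, adjusted p = 0.0068) and 1422264_s_at (-0.62, adjusted p = 0.0053) also had no overlap, and the suffix of the second says that its probes may match transcripts of more than one gene. Mouse 4 had the largest fall and mouse 2 the smallest or nearly so on these 4 probe sets. The other 3 lay between 1.68 and 3.94 with rTFF2 and between 1.89 and 4.04 with GM-CSF alone, where 1436763_a_at was just above background and 1436952_at and 1452723_at were at background, and they had differences of -0.17, -0.24 and -0.15 (adjusted p of 0.13, 0.055 and 0.22). The 4 called *Klf9* probe sets stayed past the threshold under all 12 alternatives run on them.

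*Klf13* (Entrez gene 50794, chromosome 7), known in T cells as an activator of the chemokine gene *Ccl5*, rose on both of its measured probe sets. Probe set 1432543_a_at read 9.34, 9.29, 9.64 and 9.60 with rTFF2, against 8.83, 8.74, 8.89 and 8.93 with GM-CSF alone. All rTFF2 cultures were above all control cultures, with a rise of 0.62, or 1.53-fold (standard error 0.074, adjusted p = 0.0015). On 1436316_at the rTFF2 cultures had 9.40, 9.48, 9.80 and 9.58, against 9.11, 8.86, 9.26 and 9.06 with GM-CSF alone, also without overlap, a rise of 0.49 (standard error 0.078, adjusted p = 0.0048). The third, 1456030_at, was at background, between 2.17 and 2.44 with rTFF2 and between 2.19 and 2.36 with GM-CSF alone.

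*Klf10* (Entrez gene 21847, chromosome 15), which TGF-β induces within hours and which feeds back on Smad signalling, was not called. Its probe set 1416029_at had 9.70, 9.33, 9.73 and 9.59 with rTFF2, against 9.13, 8.99, 9.68 and 9.74 with GM-CSF alone. Mice 1 and 2 were higher with rTFF2 by 0.57 and 0.34, mouse 3 by 0.05, and mouse 4 was lower by 0.15, so the direction was not shared. The mean difference of 0.20 had a 95% interval of -0.08 to 0.49 (adjusted p = 0.27). It was 0.081 without mouse 1 (adjusted p = 0.69) and 0.32 without mouse 4 (adjusted p = 0.12).

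The genes around the KLFs were followed through lists of known partners, 1 probe set per gene, where 14.5% of all 12393 genes were called higher and 13.3% lower. None of 11 other Klf and Sp genes passed the test, with a median difference of -0.03 on the log2 scale, as over all genes (-0.03), while 2 of 11, *Sp3* and the background-level *Sp7*, had an unadjusted p under 0.05 in limma. *Sp7* was called lower without mouse 2 (-0.34, adjusted p = 0.028). Of these, 7 were at background, *Klf1*, *Klf12*, *Klf15*, *Klf17*, *Sp5*, *Sp6* and *Sp7*, while *Klf16*, *Sp1*, *Sp3* and *Sp4* were above it. *Sp1* averaged 9.96 ± 0.14 with rTFF2 and 10.11 ± 0.11 with GM-CSF alone (SD, n = 4 mice each; adjusted p = 0.18), and *Sp3* 11.35 ± 0.10 and 11.13 ± 0.08 in the same order of groups (adjusted p = 0.10). Among 11 cofactors, 2 rose and 2 fell. *Crebbp* (+0.47, adjusted p = 0.0087) and *Kat2b* (+0.36, adjusted p = 0.0087), acetyltransferases that KLF activators recruit, rose, while the acetyltransferase gene *Kat2a* (-0.35) and the deacetylase gene *Hdac2* (-0.33) fell. The call of *Hdac2* was lost without any one of the 4 mice (adjusted p of 0.054, 0.085, 0.052 and 0.10 without mice 1 to 4) and that of *Kat2a* without mouse 1, 2 or 3 (0.17, 0.14 and 0.14). *Ctbp1*, the corepressor of KLF3, averaged 11.08 ± 0.08 with rTFF2 and 11.02 ± 0.11 with GM-CSF alone (adjusted p = 0.60).

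Of 14 factors that induce KLF genes, 6 rose and 3 fell, one of the 3 that fell, *Smad3*, at background, with a median of 0.24. Without mouse 1 or without mouse 3 only 3 rose, and with the *Actb* covariate described further on 1 did. *Mef2d*, which encodes a MEF2 factor, had 7.65, 7.14, 7.52 and 7.66 with rTFF2, against 5.85, 6.21, 6.58 and 6.72 with GM-CSF alone. The groups did not overlap, and it rose by 1.15, or 2.22-fold (standard error 0.15, adjusted p = 0.0023). Its relative *Mef2c* went the other way, at 6.50, 6.62, 6.62 and 6.94 with rTFF2, against 7.74, 7.14, 7.66 and 7.60 with GM-CSF alone (-0.87, adjusted p = 0.0032). *Srf*, the serum response factor, rose by 0.48 (adjusted p = 0.0031) and *Mapk7*, which encodes ERK5, by 0.52 (adjusted p = 0.0043). *Stat6* rose by 0.34 (adjusted p = 0.020) and lost the call without mouse 1, mouse 3 or mouse 4 (adjusted p of 0.085, 0.056 and 0.070). With the *Actb* covariate the calls of *Mef2d* (0.88, adjusted p = 0.13), *Mapk7* (0.60, adjusted p = 0.059) and *Stat6* (0.42, adjusted p = 0.15) were lost. *Nr3c1*, the glucocorticoid receptor, was 9.81 ± 0.13 with rTFF2 and 9.59 ± 0.02 with GM-CSF alone and was not called (adjusted p = 0.090). Of 6 ubiquitin ligases described for KLF proteins, *Siah1a* (+0.35) and *Wwp1* (+0.36) rose and none fell, and the call of *Wwp1* was lost without any one of the 4 mice (adjusted p of 0.055, 0.078, 0.053 and 0.098).

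Of 21 genes described elsewhere as targets of KLFs, mostly in macrophages, endothelium or T cells, 8 rose and 4 fell, with a median of 0.28. *Ccnd1*, the cyclin D1 gene, which KLF4 represses in epithelial cells, was 7.66 ± 0.54 with rTFF2 and 10.70 ± 0.15 with GM-CSF alone, 8.20-fold lower (adjusted p = 2.8e-04). *Bcl6*, a repressor of inflammatory genes, was 7.70 ± 0.34 with rTFF2 and 8.92 ± 0.12 with GM-CSF alone (-1.22), and *Thbd*, the thrombomodulin gene that KLF2 and KLF4 activate in endothelium, was at least 1.99-fold higher with rTFF2 by the same reckoning, with 4 of 4 rTFF2 arrays and 1 of 4 control arrays above background. Against the level of 2.92, every control array of *Thbd* was above background, and its fitted difference was 1.22, or 2.34-fold. *Ccl5*, the chemokine gene that KLF13 activates in T cells, had 6.13, 6.96, 5.85 and 6.10 with rTFF2, against 9.23, 7.93, 8.54 and 8.04 with GM-CSF alone. It fell by 2.18 (adjusted p = 0.0031), and a link to *Klf13* in these cultures was not tested. *Retnla*, *Mrc1*, *Arg1* and *Chil3* are genes of alternatively activated macrophages. *Chil3* was not called (0.42, adjusted p = 0.12), and was higher with rTFF2 in 3 of 4 mice. *Retnla* had 7.67, 5.30, 9.22 and 9.64 with rTFF2, against 5.51, 2.62, 7.09 and 7.29 with GM-CSF alone. Its rise in limma with the mouse as a block was 2.33 (standard error 0.10, adjusted p = 7.4e-05), and without the pairing it had an adjusted p of 0.20. The control culture of mouse 2 was at background for *Retnla* by either level, so the size of the rise in that mouse (2.68) is uncertain. *Mrc1*, the mannose receptor gene, rose by 1.74, and *Arg1*, the arginase gene, had 11.83, 11.04, 12.83 and 12.91 with rTFF2, against 10.95, 4.30, 12.27 and 12.66 with GM-CSF alone, which was not called (2.11, adjusted p = 0.18). Mouse 2 had the lowest *Retnla* and *Arg1* of each group. Without mouse 2 the *Arg1* difference was 0.57 (adjusted p = 0.025). With the *Actb* covariate the difference was 0.0084 for *Retnla* (adjusted p = 0.999) and -2.77 for *Arg1* (adjusted p = 0.46).

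Genes that respond to the stimuli that also induce KLFs were read beside them. Of 17 immediate-early genes, 8 rose and 1 fell (none without mouse 1 or without mouse 3), with a median of 0.31. *Fos* had 12.91, 12.91, 12.57 and 12.47 with rTFF2, against 10.55, 11.26, 10.15 and 10.78 with GM-CSF alone, with no overlap and a rise of 2.03, or 4.09-fold (adjusted p = 3.3e-04). *Junb* (+0.92), *Ier2* (+0.69), the phosphatase gene *Dusp1* (+0.93) and the zinc finger gene *Egr1* (+0.71) rose too, and *Jund* fell by 0.40. With the *Actb* covariate the calls of *Junb* (0.85, adjusted p = 0.089) and *Egr1* (0.88, adjusted p = 0.053) were lost. Of 9 genes that glucocorticoids induce, as they do *Klf9*, 3 rose and 1 fell. *Sgk1*, a kinase gene, rose by 0.78, the clock gene *Per1* by 0.71 and the mTOR inhibitor gene *Ddit4* by 1.60. The call of *Ddit4* was lost with the offset of 32 (adjusted p = 0.074) and with a trended and robust prior in limma (0.069). With the *Actb* covariate, *Ddit4* (0.11, adjusted p = 0.93) and *Per1* (0.33, adjusted p = 0.62) lost their calls. *Tsc22d3* (GILZ) fell by 0.30, a call lost without mouse 1, 3 or 4 (adjusted p of 0.099, 0.10 and 0.053), without the pairing (0.14) and with that covariate (0.088).

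**Figure D3:**
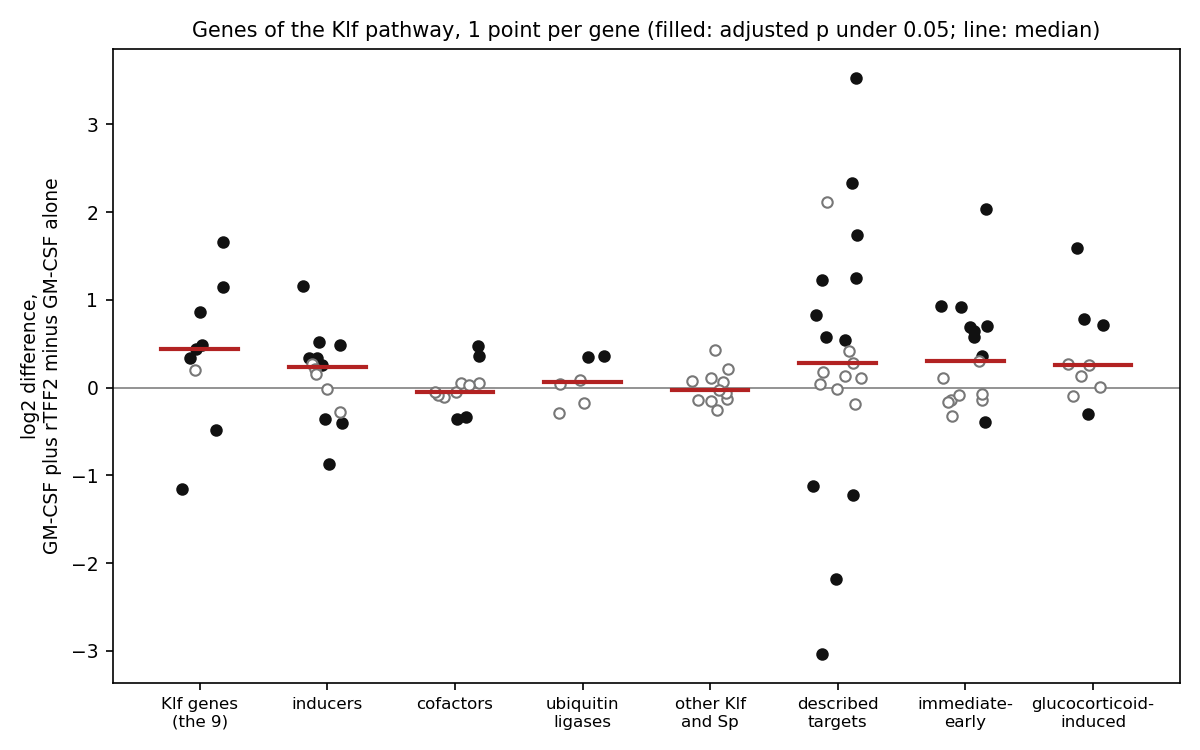
Log2 difference (rTFF2 cultures minus cultures with GM-CSF alone) of the 9 KLF genes and of 7 lists around them, 1 point per gene (brightest probe set), with the median of each list as a line and filled points where the adjusted p is under 0.05. The 9 KLF genes spread on both sides of 0, the 11 other Klf and Sp genes are all open points near 0, and the described targets have the widest spread.

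Marker genes of several cell types differed between the groups, and numbers of cells were not measured. The part of cell types in the KLF differences was not tested. All 12 neutrophil markers and all 6 markers of basophils and mast cells rose with rTFF2, and 9 of 10 dendritic cell markers fell. Without mouse 3 the neutrophil count was 5, and without mouse 4 it was 7. The summed signal of the neutrophil list, on the log2 scale, ranged between 16.23 and 16.47 with rTFF2 and between 14.74 and 15.94 with GM-CSF alone, that of basophils and mast cells between 12.04 and 12.92 with rTFF2 and between 7.44 and 8.88 with GM-CSF alone, and that of dendritic cells between 12.84 and 13.41 with rTFF2 and between 14.77 and 15.12 with GM-CSF alone. Among 6 eosinophil markers 3 rose and 1 fell, with sums between 12.11 and 13.41 with rTFF2 and between 9.66 and 11.69 with GM-CSF alone. The 8 markers of monocytes and macrophages were expressed in both groups (3 rose, 1 fell), with sums between 15.32 and 15.51 with rTFF2 and between 14.96 and 15.31 with GM-CSF alone, and *Itgam*, which encodes the sorted antigen Cd11b, was above background on all arrays. Of cell types in which KLFs are best known, 9 of 10 endothelial and stromal markers, 8 of 10 T and NK cell markers, 5 of 6 B cell markers and 5 of 5 erythroid markers were at background in both groups.

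RNA quality differed a little between the groups. The log2 excess of 3' over 5' signal of *Actb* was 0.66, 0.74, 0.73 and 0.66 with rTFF2, against 0.48, 0.42, 0.62 and 0.58 with GM-CSF alone, without overlap, while that of *Gapdh* was 0.26 ± 0.04 with rTFF2 and 0.22 ± 0.07 with GM-CSF alone. With the *Actb* excess as a covariate in place of the mouse block, 9 of 26 KLF probe sets were called. The 2 of *Klf3*, the 2 of *Klf5*, 4 of *Klf9* and 1418280_at of *Klf6* passed, and the differences of *Klf4* (-1.47 and -0.91, adjusted p of 0.11 and 0.11), the remaining *Klf6*, *Klf7* and *Klf13* probe sets and *Klf2* (0.05, adjusted p = 0.96) did not. Since the excess itself parts the groups, it and the treatment cannot be told apart in this fit.

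**Figure D4:**
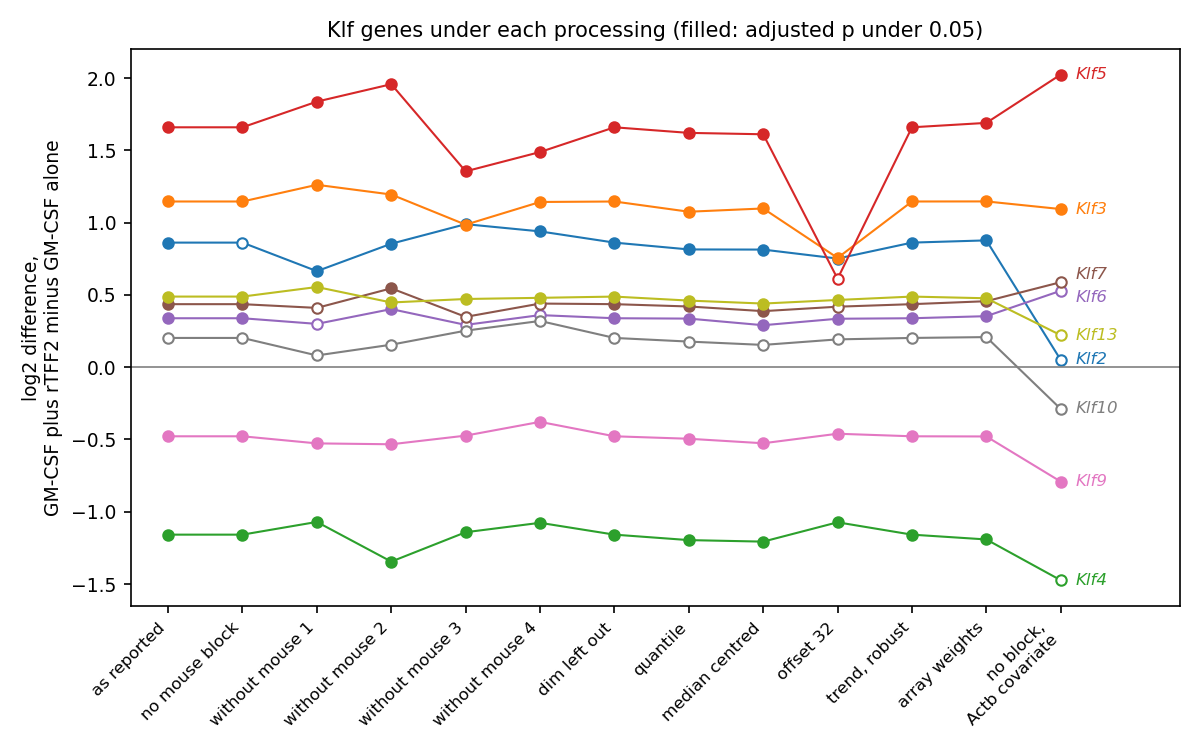
Log2 difference (rTFF2 cultures minus cultures with GM-CSF alone) of the brightest probe set of each KLF gene as reported and under 12 alternatives, 1 line per gene, filled where the adjusted p is under 0.05. The signs of 8 genes hold throughout and *Klf10*, open in every column, turns to -0.29 with the *Actb* covariate. *Klf3* and *Klf9* stay filled in every column. *Klf5* opens with an offset of 32, and *Klf2* without the mouse block and with the *Actb* covariate. *Klf4* and *Klf13* open with the *Actb* covariate. *Klf6* and *Klf7* open with it and without mouse 1, mouse 3 or mouse 4, and *Klf7* also with an offset of 32.

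Over the 8 arrays, the genes most like the KLF probe sets with the smallest p among those higher and among those lower were looked up by Pearson correlation, among 7247 other genes above background. The level of *Klf3* (1421604_a_at) was most like those of *Pla2g7* (r = 0.9918), *Rbms1* (0.9917) and *Stag2* (0.9904), and 579 genes had r over 0.9 with it. *Klf4* (1417395_at) was most like *Dexi* (0.9748), *Sod1* (0.9699) and *Dlat* (0.9687), with 139 genes over 0.9. These arrays share the contrast between the groups and the mice, so the values describe likeness over 8 cultures only.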

How the data were processed

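RNA of 8 cultures, 4 with GM-CSF plus rTFF2 and 4 with GM-CSF alone, was measured on Affymetrix mouse arrays, 1 per culture. The deposited log2 signals were made by the authors with GCRMA, which corrects background by base content, normalizes the arrays to 1 distribution and summarizes probe sets; the versions in the submitters' processing notes are 2.30.0 for GCRMA and 1.36.0 for affy. Normalization to 1 distribution would hide a shift of all genes, and dim signals depend on the background correction. Array medians were 4.15 to 4.21 with rTFF2 and 4.10 to 4.13 with GM-CSF alone, and precision is limited by how few arrays there are. Scanner files were not used here.

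Groups and mouse numbers came from the labels. The values of 22690 probe sets, without 64 controls, were fitted in R 4.3.3 with limma 3.58.1 (lmFit, eBayes), with the mouse as a block, since each number marks 1 animal whose cells were split. Deviations from the group means correlated between cultures of a mouse at 0.05, 0.54, 0.31 and 0.39 (mice 1 to 4) and between different mice at -0.54 to 0.34. Tests were two-sided, with Benjamini-Hochberg adjustment over 22626 probe sets. Of these, 20380 carry 1 symbol in the platform annotation, 691 several and 1555 none; no probe set with several symbols held a member. A gene is represented by its brightest probe set.

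The members and lists were chosen with earlier results of these data known. The text names every member probe set and the 3 genes most like a member. From each list other than the cell type and background lists, it names up to 4 called genes by smallest adjusted p. Other genes were named after their values were seen. The background level without *Mbp* and *Cela1*, listed genes that stood above it, is 2.92. It leaves 22 KLF probe sets above it, as before, but moves control arrays of *Klf5* and *Thbd* above background. Among the marker genes counted as at background, *Slc4a1*, *Cd8a* and *Cd3g* lie above 2.92 in a group. That level was added after seeing the data. The fit was tested on simulated data.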

Additional observations from a re-analysis of the deposited data

Results flagged for a closer look

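Of the 52 groups of 4 cultures (26 probe sets, 2 groups each), 3 held a culture far from the others by Dixon's test, for which chance gives about 1 in 20. On *Klf6* probe set 1418280_at the culture of mouse 3 with GM-CSF alone had a log2 signal of 8.54, below the next lowest at 9.36. On *Klf7* probe set 1449439_at the rTFF2 culture of mouse 2 had 9.51, below the next lowest at 9.85. On *Klf9* probe set 1452723_at, which is at background, the culture of mouse 1 with GM-CSF alone had 1.89, below the next lowest at 1.99.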

How the results depend on the processing

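Over 12 alternatives the KLF probe sets gave 307 further results, of which 276 kept their direction and side of the threshold, 23 lost and 5 gained a call, and 3 changed sign. The sign changes were *Klf10* at -0.29 with the *Actb* covariate, and the background-level *Klf13* probe set 1456030_at at -0.0020 without mouse 4 (0.067 without mouse 2, the highest of these 4) and -0.0018 with median centring. The called KLF probe sets were 18, and 15 to 19 (9 to 13 higher and 6 lower each time) when a mouse was left out, 9 (5 higher) with the *Actb* covariate, and 4 over 2-fold (3 higher, 1 lower). Without the replicate block, so without the pairing by mouse, 17 were called (11 higher, 6 lower) and *Klf2* was lost. With the probe sets of each gene averaged, all 9 genes kept their call or its lack.

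Over all probe sets 5811 were called (3095 higher, 2716 lower), and 3609 to 5006 when a mouse was left out (2016 to 2708 higher, 1593 to 2298 lower), the fewest without mouse 1 and 3791 without mouse 3. The *Actb* covariate gave 2295 (1216 higher, 1079 lower), a threshold of 0.01 gave 2906 (1640 higher, 1266 lower) and over 2-fold gave 807 (424 higher, 383 lower). Without the replicate block 4927 were called. Median centring turned the split to 2587 higher and 3535 lower. The causes were not tested, except that leaving out a mouse, or the block, changes the degrees of freedom by construction.

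Over 38 of the genes named outside the family, 392 of 455 results were the same, 56 lost and 6 gained a call, and *Arg1* changed sign with the *Actb* covariate (-2.77). Signals near background limit *Klf5* and the 4 dimmest KLF probe sets.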
